A study of Homo sapiens with 79 samples.

Results

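The mRNAs of 7 genes of the let-7 and IMP1 network were followed across the fRIP panel: IGF2BP1, IGF2BP2, IGF2BP3, LIN28B, HMGA1, HMGA2 and DICER1. They are listed by gene symbol, and the rule sets no limit on a measured value. They are 7 of the 48453 genes in the deposited table, with 68 of its 185661 isoforms. K562, an established human erythroleukemia line grown in suspension, was the source of every library. In formaldehyde RNA immunoprecipitation (fRIP), cells were cross-linked alive for 10 min in 0.1% formaldehyde and sonicated, and an antibody pulled down 1 protein with the RNA bound to it, which was then sequenced. IMP1 fRIP comes first here because IMP1 is the protein made from IGF2BP1. The 24 fRIPs hold 70 libraries (3 each for 22 proteins, 2 each for EZH2 and STAG2), and 9 libraries of input, RNA of the lysate before immunoprecipitation, serve as the control in 3 sets of 3. All groups carry the same cross-link. The study describes the replicates of a fRIP as biological, made on different dates from different lysates.

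IGF2BP proteins bind mRNAs in the cytoplasm and are known for stabilising and localising them, and IGF2BP1 and IGF2BP3 are made mostly in embryos and tumours. LIN28B is an RNA binding protein that blocks the maturation of let-7 miRNAs, and let-7 in turn represses LIN28B, the IGF2BP mRNAs and HMGA2, which encodes an architectural chromatin protein, as does HMGA1. DICER1 encodes the ribonuclease that cuts precursor miRNAs, let-7 among them, to their mature form.

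All human let-7 miRNAs share a seed, the bases that pair with target mRNAs, and the sequences below show that seed (bases 2 to 8, in capitals) in 4 of the 9 family members matched in RefSeq (GRCh38.p14).
hsa-let-7a-5p: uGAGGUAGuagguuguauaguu
hsa-let-7d-5p: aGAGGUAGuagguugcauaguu
hsa-let-7i-5p: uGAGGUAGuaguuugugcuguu
hsa-miR-98-5p: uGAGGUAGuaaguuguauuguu

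The letters that pair with the seed are CTACCTC in the mRNA, read on the strand of the transcript. In the 3′ UTR of the most expressed coding isoform, IGF2BP1, LIN28B and HMGA2 each held 4 matches, while IGF2BP2, IGF2BP3 and HMGA1 each held 1 and DICER1 held 0. DICER1 instead held 4 matches in its coding sequence, and LIN28B held 1 there. The same isoform choice gave at least 1 match in the 3′ UTR of 8.15% of 13406 mRNA genes, whose median 3′ UTR was far shorter than these (792 bases), and 3 or more in 18 genes (0.134%). Among 3′ UTRs within 1.5 times the length of the member's own, at least 1 match was present in 31% for IGF2BP1, 21.6% for LIN28B, 15.1% for HMGA2, 13.2% for IGF2BP2, 12.3% for IGF2BP3, 9.22% for HMGA1 and 8.75% for DICER1. The first match of each gene in its 3′ UTR, or for DICER1 in its coding sequence, is printed with its hg19 position and the match in capitals, to show the letters around it. An A follows 3 of the 4 matches in the 3′ UTR of IGF2BP1, 2 of 4 in LIN28B, 1 of 4 in HMGA2, the single match of IGF2BP2 and of IGF2BP3 but not that of HMGA1, and 3 of the 4 in the coding sequence of DICER1.
LIN28B, chr6:105526688-105526709, plus strand, 3′ UTR: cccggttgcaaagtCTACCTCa
IGF2BP1, chr17:47128424-47128445, plus strand, 3′ UTR: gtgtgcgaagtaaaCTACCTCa
IGF2BP2, chr3:185362008-185362029, minus strand, 3′ UTR: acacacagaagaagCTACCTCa
IGF2BP3, chr7:23351414-23351435, minus strand, 3′ UTR: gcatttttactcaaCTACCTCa
HMGA1, chr6:34213607-34213628, plus strand, 3′ UTR: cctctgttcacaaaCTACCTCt
HMGA2, chr12:66357079-66357100, plus strand, 3′ UTR: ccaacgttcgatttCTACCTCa
DICER1, chr14:95574225-95574246, minus strand, coding sequence: cagcatactgtgttCTACCTCt

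The genes lie at chr17:47074747-47133507 (IGF2BP1), chr3:185360918-185542830 (IGF2BP2), chr7:23349828-23510110 (IGF2BP3), chr6:105384491-105531207 (LIN28B), chr6:34204650-34214008 (HMGA1), chr12:66218240-66360071 (HMGA2) and chr14:95552565-95624347 (DICER1), all in hg19. The 3′ UTR of the most expressed coding isoform spanned 6701 bases in IGF2BP1, 4549 in LIN28B, 2999 in HMGA2, 2401 in IGF2BP2, 2153 in IGF2BP3, 1347 in HMGA1 and 1251 in DICER1. The AU-rich letters ATTTA, the core of a motif bound by HUR and other proteins, occurred 15 times in the LIN28B 3′ UTR, 11 times in IGF2BP1, 10 times in HMGA2, 7 times each in IGF2BP3 and DICER1, 2 times in IGF2BP2 and 0 times in HMGA1. At least 1 ATTTA was present in 60.7% of the 13406 mRNA genes, and in 81% to 99.4% of those with a 3′ UTR of like length, whose median count was 9 for LIN28B, 13 for IGF2BP1, 6 for HMGA2, 4 for IGF2BP3, 2 for DICER1, 5 for IGF2BP2 and 2 for HMGA1. The counts of IGF2BP1, IGF2BP2 and HMGA1 lay below those medians and the others above. Both letter strings were searched on the transcript strand alone, and neither overlaps the other.

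Levels are FPKM, fragments per kilobase of transcript scaled to library depth, a per-length scale on which genes can be compared within a library. Low values rise in steps of 1 fragment, and the depth read from those steps was 1.92 M to 58.3 M (mega) fragments per fRIP library and 11.8 M to 30.3 M per input library. The IMP1 libraries held 22.7 M to 27.4 M, while the ADAR libraries were the shallowest, at 1.92 M to 2.29 M. Input carried the erythroid genes of K562, with GATA1 at 82.2 FPKM and HBG2, a fetal globin, at 866 FPKM, and the T cell gene CD3E was at 0.177 FPKM. HMGA1 was the most abundant of the 7 mRNAs in input (204 FPKM ± 47.9, SD, n = 9), followed by IGF2BP1 (65.1 FPKM ± 5.62), IGF2BP3 (45.7 FPKM ± 3.61), LIN28B (36.9 FPKM ± 7.15), IGF2BP2 (29.2 FPKM ± 6.49) and DICER1 (13.6 FPKM ± 1.52). HMGA2 stayed below 1 FPKM in each of the 79 libraries.

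The mRNAs of LIN28B and HMGA1 were recovered above input with IMP1, while those of IGF2BP1 and DICER1 rose by less than 2-fold and those of IGF2BP2 and IGF2BP3 missed the adjusted threshold on the scale as deposited. Genes that reached 1 FPKM in 2 libraries or more were tested (25442 genes, 6 of the 7 among them) by limma on log2(FPKM + 1) with Benjamini-Hochberg adjustment over all genes, and a difference was called where its adjusted p was under 0.05 and its log2 size beyond 1. IMP1 fRIP called 2 of these 6 mRNAs higher and 0 lower, against 4.23% of all tested genes higher and 10.5% lower. In 4 of the 6 every IMP1 library lay above every input library, as it did for 12.8% of tested genes. The median log2 difference of all genes was -0.17. Each library is a bulk pool and FPKM is a share of its library. The differences therefore compare an mRNA's share of the recovered RNA with its share of lysate RNA, and give no amount per cell.

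HMGA1 reached 565, 594 and 613 FPKM in the 3 IMP1 libraries, against a lowest of 142, a median of 225 and a highest of 260 FPKM in input. The IMP1 libraries were all more than the highest input library, and the lower input values were those of set 1, whose libraries averaged 142 FPKM against 234 and 235 FPKM in sets 2 and 3. The difference was 1.57 ± 0.16 (log2, SE), or 2.97-fold (limma adjusted p = 2.79e-12, exact permutation p = 0.00455, the smallest that 3 against 9 libraries can give). Against input set 1 alone, the set whose values match those the authors compared IMP1 with, the log2 difference was 2.05.

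LIN28B stood at 63.4, 104 and 116 FPKM in IMP1 fRIP, and at 26.7, 36 and 47.9 FPKM (lowest, median, highest) in input. The groups did not overlap, and 1 IMP1 library lay well below the other 2. The log2 difference was 1.31 ± 0.18, or 2.48-fold (limma adjusted p = 1.58e-08, exact permutation p = 0.00455).

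DICER1, the only mRNA of the 7 without a seed match in the 3′ UTR of its most expressed coding isoform, was at 21.3, 21.5 and 23.8 FPKM with IMP1 and at 11.4, 13.1 and 16.4 FPKM in input. Its log2 difference of 0.67 ± 0.14 (1.59-fold, limma adjusted p = 6.51e-05, exact permutation p = 0.00455) passed the adjusted p but not the 2-fold limit. IGF2BP1, the mRNA of IMP1 itself, gave 73.8, 105 and 112 FPKM against 59.3, 62.2 and 76.3 FPKM in input. Its groups overlapped through 1 IMP1 library, and the log2 difference was 0.55 ± 0.16 (1.46-fold, limma adjusted p = 0.00355, exact permutation p = 0.00909).

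The paralogue mRNAs IGF2BP2 and IGF2BP3, which encode the other proteins of the family, lay closer to input. IGF2BP3 held 51.7, 54 and 60.4 FPKM in IMP1 fRIP and 38.6, 45.4 and 51 FPKM in input, a log2 difference of 0.27 ± 0.12 (limma adjusted p = 0.0515, exact permutation p = 0.00455). IGF2BP2 held 27.9, 30.6 and 33.3 FPKM against 22.6, 26.9 and 41 FPKM, a log2 difference of 0.09 ± 0.15 (limma adjusted p = 0.674, exact permutation p = 0.636) that turned to -0.25 against input set 1 alone. The ratio of IGF2BP1 to IGF2BP2 within a library was 0.45 log2 units more in IMP1 fRIP than in input (exact permutation p = 0.114, Benjamini-Hochberg 0.152 over 4 ratios), and that of IGF2BP1 to IGF2BP3 was 0.27 more (p = 0.0818, exact, adjusted 0.152), so neither difference between the paralogues passed. Without the second IMP1 library, which had the lowest LIN28B and IGF2BP1, these differences were 0.70 and 0.41 (both exact permutation p = 0.0364), and without replicate 3 of input set 2 the second was 0.33 (exact permutation p = 0.0242).

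**Figure D1:**
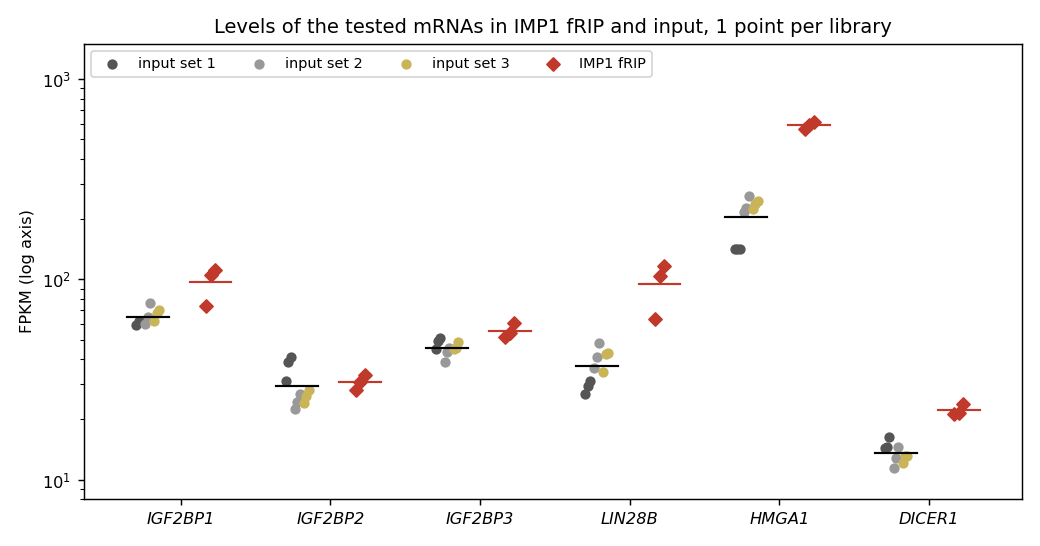
FPKM (log axis) of the 6 tested mRNAs in each input library (circles, coloured by input set) and each IMP1 fRIP library (diamonds), with a line at the mean of each group. HMGA1, LIN28B, DICER1 and IGF2BP3 show no overlap between IMP1 fRIP and input, while the points of IGF2BP1 and IGF2BP2 overlap.

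HMGA2 was too rare to test. Its highest level was 0.507 FPKM, in HNRNPH1 replicate 1, and it was listed at 0 in 14 of 79 libraries. In FPKM the groups overlap, at 0.0181 to 0.401 in input and 0.0995 to 0.257 with IMP1. Converted at the 4117 bases of the coding isoform ENST00000403681.2, the libraries hold 1.49 to 24.1 and 10.8 to 26.2 fragments. That isoform held 29% of HMGA2 FPKM in input, with 60.5% in a 485-base transcript, and 95.2% with IMP1. The conversion thus overstates input fragments. The isoform was at 0.0296 FPKM ± 0.0157 (SD, n = 9) in input and 0.192 FPKM ± 0.0807 (n = 3) with IMP1. HMGA2 and its isoforms did not pass the filter, so no difference in HMGA2 was tested. With HMGA2 near 0 in both groups, the ratio of HMGA1 to HMGA2 on the log2(FPKM + 1) scale follows HMGA1 and says nothing of HMGA2.

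Set against the other 23 fRIPs in place of input, the order of the mRNAs in IMP1 fRIP was the same at its top. HMGA1 was 2.19 ± 0.14 log2 units more than the mean of the other fRIPs (limma adjusted p = 4.38e-20), with 64 of their 67 libraries below every IMP1 library. LIN28B was 1.61 ± 0.16 more (adjusted p = 5.61e-13 by limma), with 62 of 67 below. These were 2 calls higher and 0 lower among the 6 mRNAs, against 4.73% and 10.3% of all genes. DICER1 (0.47 ± 0.12, limma adjusted p = 0.00124) and IGF2BP1 (0.44 ± 0.14, limma adjusted p = 0.00729) again passed the adjusted p alone. IGF2BP3 (0.16 ± 0.10) and IGF2BP2 (-0.17 ± 0.13) did not pass, with limma adjusted p = 0.206 and 0.29. With libraries centred on their median IGF2BP2 turned to 0.29 (limma adjusted p = 0.0624) and IGF2BP3 passed the adjusted p at 0.62 (limma adjusted p = 1.5e-06). DICER1 was then at 0.93 and IGF2BP1 at 0.90, still short of 2-fold.

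The median of log2(FPKM + 1) over the genes of a library was -0.46 log2 units in IMP1 fRIP relative to input, and centring each library on its own median raises every IMP1 difference by that amount, the median difference of all genes from -0.17 to 0.29. All 6 mRNAs stayed above input when centred, at 2.03 for HMGA1, 1.77 for LIN28B, 1.13 for DICER1, 1.00 for IGF2BP1, 0.73 for IGF2BP3 and 0.55 for IGF2BP2. IGF2BP3 and IGF2BP2 then passed the adjusted p (limma adjusted p = 6.76e-07 and 0.0017) but not the 2-fold limit. Centring also turned the split of all calls in IMP1 fRIP from 28.8% to 77.5% higher.

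The isoform table separates transcripts of the same gene, although its values are estimates that share out reads common to several isoforms. No unspliced form of these genes is among the isoforms, so intron reads of pre-mRNA cannot be told apart from transcripts that hold intron bases. Of the 68 isoforms, 53 passed the same filter, and IMP1 fRIP called 5 of them higher and 6 lower, against 3.77% and 9.33% of the 104506 isoforms tested. The 5 higher were the only LIN28B isoform, 2 coding HMGA1 isoforms, 1 more HMGA1 isoform that was not matched to the annotation and the leading coding isoform of DICER1. The 6 lower were transcripts of the IGF2BP genes, of 469 to 2948 bases, none of which holds any of the 3′ UTR. With libraries centred 3 of the 6 were no longer called, ENST00000466476.1 (-0.81) of IGF2BP2, ENST00000476938.1 (-0.81) of IGF2BP3 and ENST00000515586.1 (-0.74) of IGF2BP1.

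For IGF2BP3, the leading coding isoform, ENST00000258729.3, stood at 45.6 to 51.9 FPKM in the IMP1 libraries and at 20.1 to 27.9 FPKM in input, with a log2 difference of 0.94 ± 0.12 (limma adjusted p = 1.55e-09). It took 86.3% of the gene's FPKM with IMP1 and 53.5% in input, the lowest IMP1 library (84.3%) above the highest input library (61.6%). Beside it, the retained intron transcript ENST00000468005.1, with 2413 of its 2948 bases in introns of the leading isoform, fell from 4.49 FPKM to 0.742 FPKM (log2 difference -1.65, limma adjusted p = 1.49e-14). ENST00000474105.1, a transcript with no assigned coding sequence, fell from 5.05 to 0.562 FPKM (-1.92, limma adjusted p = 9.04e-09). The gene total, with its difference of 0.27, sums isoforms that moved in opposite directions. This shift was not particular to IMP1. ENST00000468005.1 was called lower in 8 fRIPs and ENST00000474105.1 in 9, and each was called higher in 2. Where they were lower, 2.32% (CBP) to 16.1% (PABP) of all isoforms were called lower. The leading share lay above every input library in 5 fRIPs, with means of 92.8% in PABP and 86.3% in CHD4.

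IGF2BP2 had the same layout. Its leading coding isoform, ENST00000382199.2, was at 19.8 to 25.2 FPKM with IMP1 and 7.21 to 14.1 FPKM in input (log2 difference 0.89 ± 0.19, limma adjusted p = 0.000186), which is 70.9% against 39.5% of the gene's FPKM. PABP (87.8%) and CHD4 (81.8%) fRIP gave larger mean shares. The short transcripts ENST00000496495.1 (3.99 to 0.635 FPKM) and ENST00000466476.1 (3.23 to 0.75 FPKM) fell, the latter by 0.98 on the log2 scale without the first IMP1 library, which ends its call. The IGF2BP1 transcript ENST00000515586.1 fell from 1.87 to 0.3 FPKM and lost its call without the third IMP1 library (-0.95). For IGF2BP1 the leading isoform ENST00000290341.3 already held 95.6% of the gene in input and 99.1% with IMP1, at 62.3 and 95.9 FPKM. In HMGA1, ENST00000311487.5 rose from 121 to 326 FPKM and ENST00000347617.6, which lacks a stretch of the coding sequence, from 33.6 to 186 FPKM (log2 differences 1.47 and 2.45, limma adjusted p = 6.62e-10 and 1.9e-11). The call of the DICER1 isoform ENST00000393063.1 (4.57 to 13.2 FPKM, log2 difference 1.41, limma adjusted p = 0.0199) was lost without any 1 of the IMP1 libraries, with differences of 1.33, 1.42 and 1.47, and against the matched input set (1.06).

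Among the 51 tested isoforms matched to the annotation, 17 held at least 50% of the 3′ UTR of their gene's leading isoform and 34 held less. In the first class 13 of 17 lay above 0 by more than 0.005 log2 units in IMP1 fRIP, with 4 called higher and 0 lower and a median log2 difference of 0.45. In the second class 8 of 34 did, with 0 called higher and 6 lower and a median of -0.34. This grouping was made after the isoform values were seen and has no test.

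**Figure D2:**
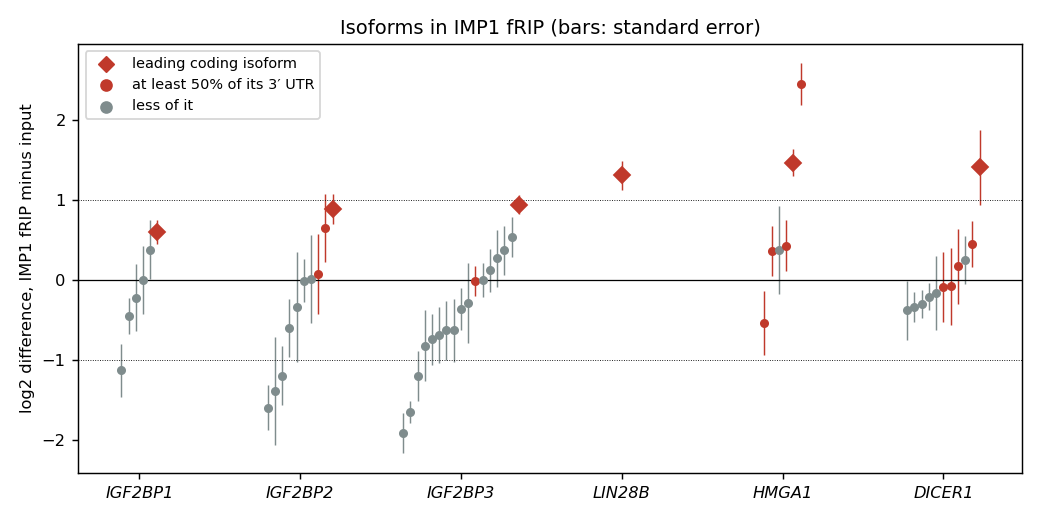
Log2 difference of IMP1 fRIP from input (y axis, log2(FPKM + 1) scale) for the 51 isoforms, by gene, with bars for the standard error. Diamonds are leading coding isoforms, red circles hold at least 50% of the leading 3′ UTR and grey circles less, and dotted lines mark the 2-fold limits. The diamond is above 0 in each of the 6 genes, and the points below the lower dotted line are grey.

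Across the other 23 fRIPs the same 6 mRNAs gave 11 calls higher and 15 lower, which with IMP1 makes 13 and 15 of 144 pairs, against 6.9% higher and 5.52% lower over all genes and fRIPs. HMGA1 was called lower in 7 fRIPs and higher in 2, and LIN28B lower in 4 and higher in 1. IGF2BP2 was called higher in 4 and lower in 0. IGF2BP3 was called higher in 2 and lower in 2, IGF2BP1 higher in 2 and lower in 1, and DICER1 higher in 2 and lower in 1. In the main fit, against all 9 inputs and without centring, CBP, CHD1, CHD7, HNRNPU, LSD1, NUP98, PCAF, PHF8, RBBP5 and STAG2 called 0 of the 6 in either direction. Of all genes, the shares called higher and lower there were 9.08% and 3.78% in CBP, 0.424% and 1% in CHD1, 0.99% and 0.896% in CHD7, 13.1% and 2.52% in HNRNPU, and 0.814% and 6.66% in LSD1. They were 0.263% and 5.11% in NUP98, 0.515% and 8.54% in PCAF, 3.18% and 1.71% in PHF8, 2.28% and 0.731% in RBBP5, and 0.979% and 3.36% in STAG2. All these comparisons share the input libraries, so their calls are not independent of each other.

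**Figure D3:**
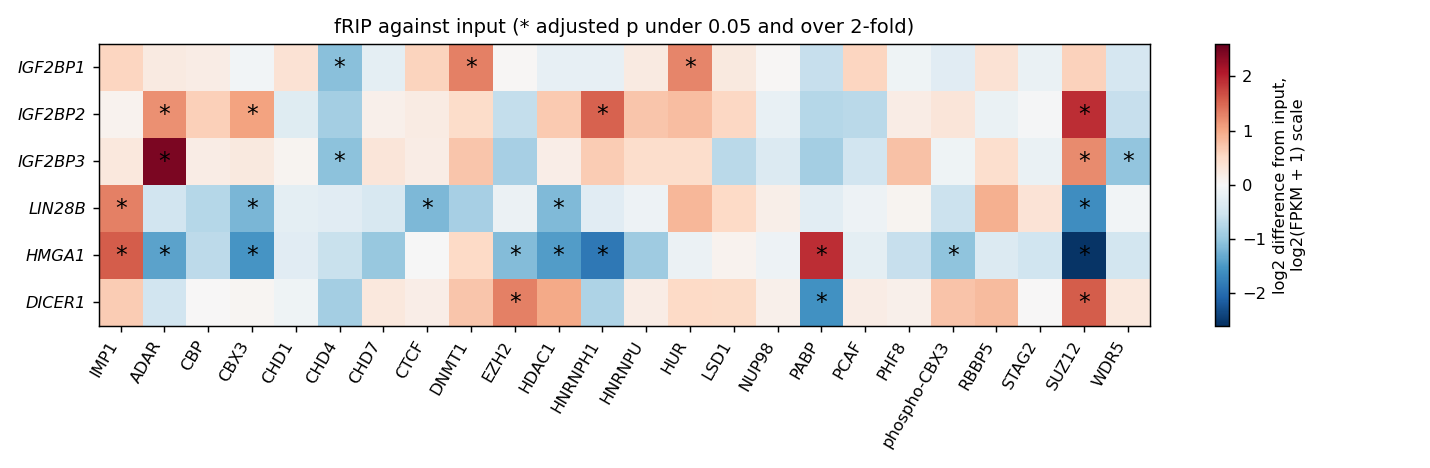
Log2 difference from input (colour, log2(FPKM + 1) scale) of the 6 tested mRNAs (rows) in the 24 fRIPs (columns, IMP1 first), with a star where a difference was called. LIN28B is starred in red under IMP1 alone, HMGA1 in red under IMP1 and PABP, and the deepest colours are IGF2BP3 under ADAR (2.44) and HMGA1 under SUZ12 (-2.54).

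HMGA1 and LIN28B shared the lower calls of SUZ12, CBX3 and HDAC1 fRIP. SUZ12, a subunit of the Polycomb repressive complex PRC2, gave the lowest HMGA1 of all groups, at 27.6, 35.3 and 37.7 FPKM, which is 5.82-fold below input (log2 difference -2.54 ± 0.16, limma adjusted p = 4.08e-21). LIN28B in SUZ12 fRIP was at 9.01, 11.6 and 13.5 FPKM, also the lowest of all groups and 3.05-fold below input (-1.61 ± 0.18, limma adjusted p = 1.75e-11). SUZ12 called 3 of the 6 mRNAs higher and 2 lower, against 15.3% and 8.6% of all genes. The 3 higher were IGF2BP2 at 101, 112 and 122 FPKM (3.79-fold), DICER1 at 36, 43.6 and 48.2 FPKM (2.98-fold) and IGF2BP3 at 95.2, 98.6 and 131 FPKM (2.32-fold), with limma adjusted p = 5.46e-17, 6.08e-15 and 8.01e-14. SUZ12 fRIP was the highest of the 25 groups for IGF2BP2 and DICER1, and its IGF2BP2 libraries did not overlap those of the next group, HNRNPH1.

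CBX3, a heterochromatin protein of the HP1 family, called 1 of the 6 higher and 2 lower (7.45% and 3.65% of all genes). HMGA1 was at 68.7 FPKM ± 11.7 (SD, n = 3) there, with a log2 difference of -1.53, and LIN28B at 15.6 FPKM ± 4.02, with -1.19. LIN28B lost the 2-fold call without replicate 2 of CBX3 (-0.98), and IGF2BP2 (60.6 FPKM ± 7.08, 1.05) lost it without replicate 1 (0.96). With phospho-CBX3, a modified form of CBX3, HMGA1 was the only call (96.3 FPKM ± 11.9, log2 difference -1.04, -0.97 without replicate 2), where 2.58% of genes were called higher and 2.91% lower. HDAC1, a histone deacetylase, called HMGA1 (71.9 FPKM ± 5.88, -1.46) and LIN28B (16.2 FPKM ± 4.31, -1.15, and -0.93 without replicate 1) lower, against 5.35% of genes lower and 8.42% higher. CTCF, a zinc finger insulator protein, called only LIN28B lower (15.9 FPKM ± 3.80, -1.17), against 0.79% of genes lower and 0.424% higher. Against the input set that matches each fRIP in the authors' comparison, the LIN28B differences shrank to -0.88 in CBX3, -0.85 in CTCF and -0.83 in HDAC1, and those of HMGA1 to -0.98 in HDAC1 and -0.56 in phospho-CBX3, all short of 2-fold, while IGF2BP2 in CBX3 shrank to 0.71.

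PABP, the poly(A) binding protein, was the only fRIP above IMP1 for HMGA1. Its 3 libraries held 707, 712 and 836 FPKM, 3.76-fold above input (log2 difference 1.91 ± 0.16, limma adjusted p = 8e-16) and above all IMP1 libraries. DICER1 was at its lowest with PABP, at 3.81, 3.86 and 3.94 FPKM, 2.99-fold below input (-1.58 ± 0.14, limma adjusted p = 8.18e-15). PABP thus called 1 of the 6 higher and 1 lower, against 11.1% and 14.7% of genes. HUR, which binds AU-rich elements, called IGF2BP1 alone (143, 165 and 167 FPKM, 2.41-fold, limma adjusted p = 1.18e-09), where 6.42% of genes were called higher. LIN28B was at 58.9, 70.7 and 71.8 FPKM with HUR, above all input libraries but short of the 2-fold limit (log2 difference 0.87, limma adjusted p = 7.28e-05). It had the most ATTTA of the 7 in the most expressed coding isoform (15), though DICER1 had more per kilobase (5.6 against 3.3). With the longest 3′ UTR, HMGA2 held 22 and DICER1 17.

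EZH2, the catalytic subunit of PRC2, had 2 libraries, and both held DICER1 above input (32.7 and 36.9 FPKM, 2.46-fold, limma adjusted p = 1.54e-09) and HMGA1 below it (87.8 and 92.1 FPKM, 2.19-fold lower, limma adjusted p = 1e-06), against 10.5% of genes higher and 9.13% lower. The HMGA1 difference with EZH2 was -1.38 against its matched input set, and -0.66 and not called against input set 1 alone. CHD4, a nucleosome remodeller, called IGF2BP1 (23.7, 33.5 and 33.6 FPKM, log2 difference -1.09) and IGF2BP3 (18.8, 22.4 and 23.2 FPKM, -1.06) lower, against 9.79% of genes. Without replicate 2 of CHD4 these became -0.93 and -0.97 and left the call. Against its matched input set CHD4 kept both calls (-1.01 and -1.14). That set also put IGF2BP2 beyond the limit (-1.22, limma adjusted p = 3.47e-08), from -0.88 against all inputs. WDR5, a subunit of histone methyltransferase complexes, called IGF2BP3 lower (20, 22.3 and 23 FPKM, -1.03, where 6.71% of genes were lower and 3.9% higher). That call was lost without WDR5 replicate 3 (-0.98) and against the matched input set (-0.93, the same with the replicate block). HNRNPH1, a splicing regulator, called IGF2BP2 higher (77.7, 84.9 and 94 FPKM, 2.91-fold) and HMGA1 lower (49.6, 55.4 and 58.8 FPKM, 3.6-fold lower), against 24.5% and 7.9% of genes, and with centring the IGF2BP2 difference was 0.81 and no longer called. Centring also ended the calls of IGF2BP1 and IGF2BP3 in CHD4 (-0.69 and -0.65), of IGF2BP3 in WDR5 (-0.66), of IGF2BP2 in CBX3 (0.92) and of HMGA1 in phospho-CBX3 and EZH2 (both -0.97). It added lower calls of LIN28B and DICER1 in ADAR (both -1.47) and in HNRNPH1 (-1.04 and -1.54) and of HMGA1 in HNRNPU (-1.51) and CHD7 (-1.02), and a higher call of IGF2BP1 in PCAF (1.17). With centring, 35.2% of all genes were called lower in ADAR, 22.1% in HNRNPH1, 13.7% in HNRNPU and 0.959% in CHD7, and 11.8% higher in PCAF.

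ADAR fRIP gave the largest rise of any of the 6 mRNAs in the panel without centring. ADAR edits adenosine to inosine in double-stranded RNA. IGF2BP3 was at 234, 244 and 281 FPKM with ADAR, 5.44-fold above input (log2 difference 2.44 ± 0.12, limma adjusted p = 6.74e-27), and no other group came near these libraries, the next being SUZ12 at a mean of 108 FPKM. IGF2BP2 was also higher with ADAR (51.5, 74.6 and 74.9 FPKM, 1.18) and HMGA1 lower (62.8, 81 and 82.5 FPKM, -1.39), which made 2 calls higher and 1 lower against 26.6% and 4.31% of genes. The library medians of ADAR fRIP lay 0.98 log2 units above those of input, so centring took the median difference of all genes from 0.29 to -0.69. IGF2BP3 was then at 1.47, below HMGA1 with PABP (2.40) and IMP1 (2.03), IGF2BP2 with SUZ12 (1.90), LIN28B with IMP1 (1.77) and DICER1 with SUZ12 (1.55), and IGF2BP2 with ADAR was at 0.20, short of a call. Against matched input the IGF2BP2 difference was 0.84 and that of HMGA1 -0.92.

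In the isoform table the ADAR rise of IGF2BP3 was assigned to transcripts other than the leading mRNA. The retained intron transcript ENST00000468005.1 went from 4.49 FPKM in input to 138 FPKM ± 6.01 (SD, n = 3), a log2 difference of 4.68 ± 0.14 (limma adjusted p = 4.01e-36). ENST00000474105.1 went from 5.05 to 64.6 FPKM (3.46), and the leading coding isoform from 24.4 to 11.3 FPKM (-1.04, and -0.97 without ADAR replicate 1, which ends its call). ADAR called 17.3% of all isoforms higher and 9.06% lower. Both of these transcripts fell in IMP1 fRIP. Across all genes, the paper places ADAR among the proteins with the most intron alignments and IMP1 among those bound almost only to exons. Reads from introns of IGF2BP3 pre-mRNA cannot be told apart from these transcripts here. Isoform comparisons for fRIPs other than IMP1 were added after the data were examined.

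**Figure D4:**
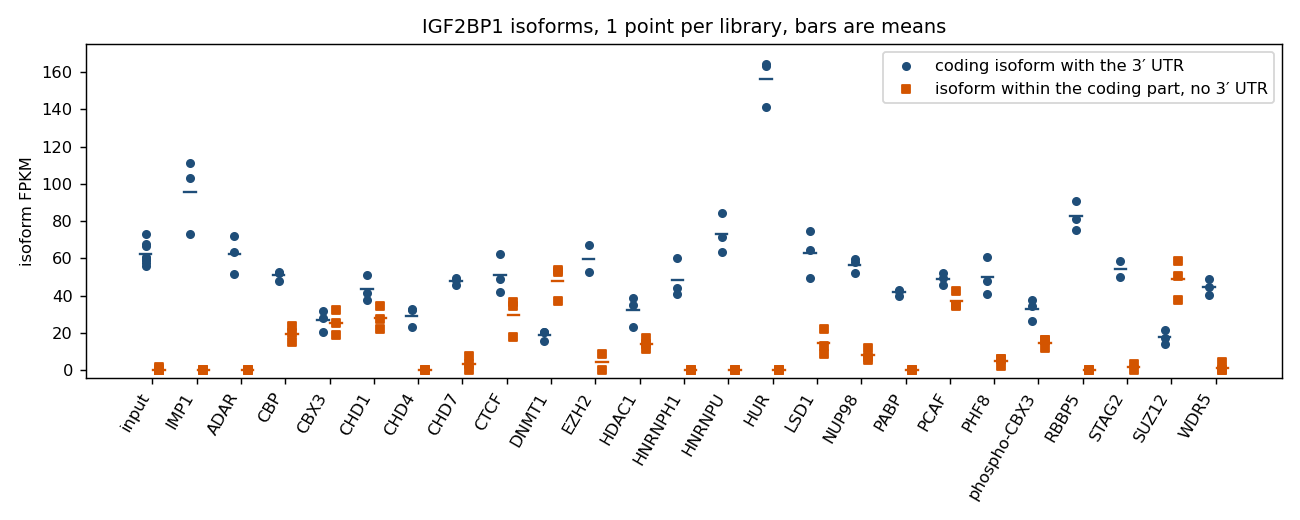
FPKM of the leading IGF2BP1 isoform with the 3′ UTR (circles) and of an isoform that lies within its coding part (squares) in every library of input and the 24 fRIPs, with lines at group means. Squares lie near 0 in input, IMP1, HUR and PABP, and above the circles in DNMT1 and SUZ12.

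The FPKM of IGF2BP1 had a comparable split, between a long and a short annotated coding transcript. The short one, ENST00000431824.2, has 1317 bases, all within the coding part of the leading isoform and 0 in its 3′ UTR of 6701 bases. Because all its bases are shared, uneven coverage along the leading isoform and a separate short RNA cannot be told apart in these FPKM values. The paper reports that coverage with DNMT1 and SUZ12 leaned toward the 5′ ends of transcripts. In input it averaged 0.321 FPKM, with a highest library of 2 FPKM. It was called higher in 14 of 24 fRIPs and lower in 0, for example with DNMT1, a DNA methyltransferase (37.2 to 53.8 FPKM, log2 difference 5.30, limma adjusted p = 5.14e-16), SUZ12 (37.9 to 58.8 FPKM, 5.33, limma adjusted p = 2.69e-16) and PCAF, a histone acetyltransferase (34.6 to 42.8 FPKM, 4.96, limma adjusted p = 3.38e-14). All isoforms tested were called higher at 13.8% in DNMT1, 21.3% in SUZ12 and 2.06% in PCAF fRIP, and at 1.2% (NUP98) to 21.3% (SUZ12) over the 14. The calls in EZH2 (2.3e-16 and 8.72 FPKM) and CHD7 (0.00025 to 7.62 FPKM) include a library near 0 and overlap input. The 10 fRIPs that did not call it were ADAR, CHD4, HNRNPH1, HNRNPU, HUR, IMP1, PABP, RBBP5, STAG2 and WDR5, with means of up to 1.78 FPKM, in STAG2.

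The leading isoform of IGF2BP1 was called lower in 3 of these fRIPs, with SUZ12 (14 to 21.8 FPKM, log2 difference -1.77), DNMT1 (15.6 to 20.6 FPKM, -1.67) and CBX3 (20.3 to 31.8 FPKM, -1.21). It was also called lower with CHD4 (23 to 32.7 FPKM, -1.08), where the short isoform was near 0, against 62.3 FPKM in input, and higher with HUR (141 to 164 FPKM, 1.31), with limma adjusted p between 1.82e-15 and 3.24e-08. Of all isoforms, 6.47% were called lower in SUZ12, 5.45% in DNMT1, 3.29% in CBX3 and 12% in CHD4, and 4.81% higher in HUR. The leading isoform made up 11.6% of IGF2BP1 FPKM with DNMT1 and 17.8% with SUZ12, and 98.5% with HUR. The gene totals of DNMT1 and HUR overlapped, at 125, 181 and 186 FPKM with DNMT1 (2.46-fold above input, limma adjusted p = 5.61e-10, where 9.56% of genes were called higher) and at the HUR values above. In DNMT1 the retained intron transcript ENST00000505562.1, of 461 bases, held the largest part at 64.3 FPKM, and it was at or near 0 in input. FPKM divides by length, so a given number of fragments counts for more in these short transcripts than in one of 8796 bases.

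The leading isoform of DICER1 was not called in SUZ12 and EZH2, the 2 fRIPs that called the gene more than 2-fold higher. It was at 2.61 FPKM with SUZ12 against 4.57 FPKM (1.47 to 6.2) in input. In the 2 EZH2 libraries it was at 0.00732 and 11.4 FPKM, on either side of the input range. In SUZ12 the coding transcript ENST00000541352.1, which holds 0.48% of the leading 3′ UTR, went from 0.965 to 13 FPKM (log2 difference 2.98, limma adjusted p = 1.73e-07). Of its 5621 bases 5606 lie in the leading coding part, so it too cannot be told apart from uneven coverage of the leading isoform. In EZH2 ENST00000556045.1, annotated for nonsense-mediated decay, went from 0.394 to 7.15 FPKM (2.61, limma adjusted p = 3.45e-08). HMGA1 with PABP, in contrast, rose in its leading isoform (121 to 480 FPKM, 2.03, limma adjusted p = 4.69e-15), whose share was 63.9% with PABP and 58.9% in input.

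Read identity limits some of these values. IGF2BP3 shares 1521 exonic bases, 35.6% of its leading isoform and within its 3′ UTR, with MALSU1 on the opposite strand, and whether counting used the strand is not given in the sources used here, so reads there cannot be told apart if it did not. MALSU1 was at 38.5 FPKM in input, 15.6 FPKM with IMP1, 15.6 FPKM with SUZ12 and 54.2 FPKM with ADAR, and the 2 transcripts that carried IGF2BP3 in ADAR fRIP share 0 bases with it. Of the 31-base words of each leading isoform, 51.6% in IGF2BP3, 22.1% in HMGA1 and 18.6% in IGF2BP2 also occur in other genes (pseudogene HMGA1P1 holds 7.83% of those of HMGA1), against at most 1.55% in IGF2BP1, LIN28B, HMGA2 and DICER1.

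Ordered by mean level as deposited over the 25 groups (24 fRIPs and input), IMP1 fRIP stood 1st for LIN28B, 2nd for HMGA1, 2nd for HMGA2, 5th for IGF2BP1, 7th for DICER1, 10th for IGF2BP3 and 15th for IGF2BP2. Centring changes such orders. For IGF2BP2 the centred log2 difference from input was 0.55 with IMP1, above ADAR (0.20) and HDAC1 (0.39), which lay above IMP1 as deposited. Behind IMP1, LIN28B was highest with RBBP5 (69.9 FPKM) and HUR (67.1 FPKM), and both overlap IMP1 through its lowest library. Most neighbours in the order do not differ beyond their spread. Of the 24 neighbouring pairs, those without overlap numbered 6 for HMGA1, 5 for IGF2BP3, 3 for DICER1, 2 each for IGF2BP1 and IGF2BP2 and 0 for LIN28B and HMGA2.

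Over the 24 protein means of centred log2(FPKM + 1), without input, the genes most like LIN28B among 11136 mRNA genes were NAA30 (Pearson r = 0.956), NRAS (0.954), a RAS family GTPase, and PRKAR2B (0.953). For HMGA1 they were SUMO2 (0.950), RHOA (0.941) and ARF1 (0.937), and for DICER1 STXBP5 (0.946), FAM63B (0.942) and BACH1 (0.938). IGF2BP1 was most like SF3A1 (0.857) and SEPTIN11 (0.837), IGF2BP2 like PHF21A (0.850), PACS1 (0.833) and NEBL (0.820), and IGF2BP3 like GIT2 (0.816) and SLC38A9 (0.814). Among the 6 themselves the closest pairs were LIN28B and HMGA1 (0.731) and IGF2BP1 and DICER1 (0.632), while IGF2BP2 with LIN28B gave -0.382. These are descriptions over 24 points that share depth and library composition.

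Other genes of the pathway were read from 4 lists of textbook genes, given by counts beside the median of -0.17 over all genes. Among 19 tested let-7 target mRNAs, IMP1 fRIP called 6 higher and 1 lower, with a median of 0.55, where 4.23% and 10.5% of all genes were called. With libraries centred these counts were 10 and 0, where 12.5% and 3.62% of all genes were called. Among those higher were NRAS (49.2 to 171 FPKM, log2 difference 1.78), HMGA1, the kinase gene CDK6 (64.9 to 166 FPKM, 1.32), LIN28B and the cyclin gene CCND2 (47.4 to 112 FPKM, 1.23), and HRAS was called lower (30 to 11 FPKM, -1.38), a call lost against matched input (-0.98) and with centring (-0.92). Among 12 tested IMP1 target mRNAs, 3 were called higher and 0 lower, with a median of 0.44, and 5 were higher both with centring and against matched input. Over all 25442 genes, the matched input set with a replicate block gave 1259 calls higher and 3565 lower. Among the 3 were CD44 (5.35 to 26.2 FPKM, 2.13), which encodes an adhesion receptor, and PABPC1 (687 to 2370 FPKM, 1.79), which encodes PABP. All calls named here had limma adjusted p of at most 1.11e-05.

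Of the 12 genes of miRNA processing and silencing, 0 were called higher and 2 lower, with a median of -0.02, against the same shares of all genes. With libraries centred 4 were higher and 0 lower, and against matched input 0 were higher and 1 lower. The values over all genes given above, for centring and for the matched set with a block, apply here too. No difference between lists was tested. The 2 were DGCR8 (70.4 to 24.9 FPKM, log2 difference -1.45, limma adjusted p = 3.83e-10), the partner of the nuclear ribonuclease DROSHA, and TARBP2 (30.4 to 14.5 FPKM, -1.01, limma adjusted p = 6.83e-07), a partner of DICER1. Of 7 tested genes that control let-7 precursors, LIN28B was the only call, with a median of 0.01.

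**Figure D5:**
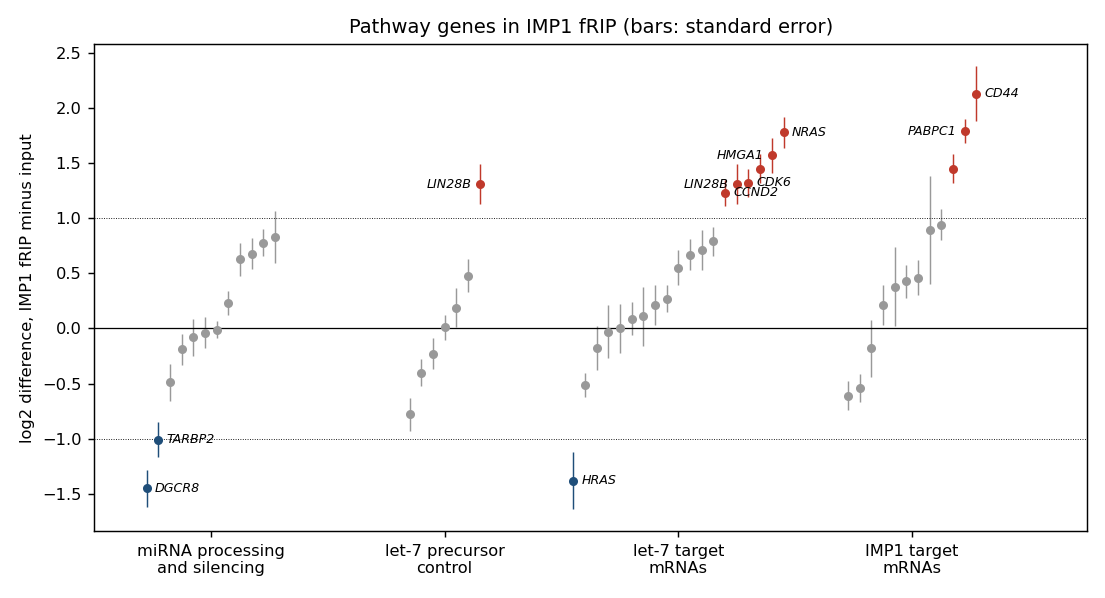
Log2 difference of IMP1 fRIP from input (y axis, log2(FPKM + 1) scale) for each tested gene of the 4 lists, ordered by value within a list, with bars for the standard error and dotted lines at the 2-fold limits. Red points are called higher, blue points lower and grey points neither, names are given for the genes described in the text, and the red points outnumber the blue in the let-7 target list by 6 to 1.

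The number of let-7 seed matches was also set beside IMP1 fRIP over all mRNA genes, within classes of 3′ UTR length. With a 3′ UTR of over 4000 bases, as in IGF2BP1 and LIN28B, the median log2 difference was 0.35 for 803 genes with 0 matches, 0.34 for 286 genes with 1, 0.38 for 48 genes with 2 and 0.55 for 13 genes with 3 or more. With 2000 to 4000 bases, as in IGF2BP2 and IGF2BP3, it was 0.27 for 1894 genes with 0 matches, 0.26 for 290 genes with 1, 0.03 for 22 genes with 2 and -0.28 for 4 genes with 3 or more. With 1000 to 2000 bases, as in HMGA1 and DICER1, it was 0.07 for 2270 genes with 0 matches, 0.10 for 224 genes with 1 and -0.18 for 14 genes with 2. Counts of 2 or more matches rest on few genes, and their medians lie above those of 0 matches in the longest class and below them in the others. LIN28B is the 1 called gene of the 13 (7.69%), where 14.9% of genes with 0 matches at that length were called higher.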

How the data were processed

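RNA of 70 fRIP and 9 input libraries from K562 cells was sequenced by the authors, who aligned reads to hg19 with TopHat and estimated gene and isoform FPKM with the Cufflinks tools Cuffdiff and Cuffnorm, per the labels. Base calling used CASAVA 1.4 (submitters' processing notes). The deposited gene and isoform FPKM per library were used as given. The authors' table of comparisons holds a test statistic, fold changes, p-values and q-values that were not used, and its group FPKM served only to find which input set matches each fRIP. The filters on reads and the use of strand are not stated in those sources.

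Log2(FPKM + 1) values of genes or isoforms that reached 1 FPKM in 2 libraries or more entered 1 limma fit (version 3.58.1, R 4.3.3, intensity trend) of all 79 libraries, in which each protein and input had its own mean, with Benjamini-Hochberg adjustment. Single values had two-sided exact permutation tests, and p-values of the paralogue ratios were adjusted with scipy 1.17.1. On simulated data for IMP1 against input (25442 genes), 95% of 200 changed genes were recovered with 3 false calls. Depth was read from the step of 1 fragment in low values of single-isoform genes, of which 97.4% to 99.4% per library lay within 0.15 of a whole multiple. Isoform parts, sites and shared words came from GENCODE v44 lifted to GRCh37 (hg19), matched by identifier without version, and miRNAs from RefSeq. Python 3.11.15 with numpy 2.4.6, pandas 2.3.3 and matplotlib 3.10.9 was used.

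The 7 genes and the lists were chosen with earlier results of these data known. All 7 were named, with every list gene called in IMP1 fRIP and the 3 genes most like each, except a few that are not reported here. Sample groups came from the labels. STAG2 replicates are 1 and 3 in the sample titles and 1 and 2 in the value columns, so the second column was given no number. Replicate numbers were checked by the correlation of deviations from group means. The 3 IMP1 pairs with input set 1 gave -0.0216, -0.135 and 0.0399, so the numbers were not taken to pair them, while CHD1, NUP98, PCAF and WDR5 had every pair with input set 2 over 0.1 (lowest 0.129). Alternatives covered pseudocounts, filters, centring, input sets, replicate blocks and each library left out.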

Additional observations from a re-analysis of the deposited data

Results flagged for a closer look

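HMGA2 in replicate 3 of input set 3 was at 0.401 FPKM, the highest of the 9 input libraries and far from the other 8 for a group of that size. Chance flags about 1 in 20 groups by that measure. All input values of HMGA2 are below 1 FPKM. This library sets the top of the input range of HMGA2 and is 1 of the 9 inputs of the HMGA1 to HMGA2 ratio.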

How the results depend on the processing

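The IMP1 differences of LIN28B and HMGA1 kept direction and call under every alternative run. With libraries centred on their median, IGF2BP1 (1.00) and DICER1 (1.13) passed the 2-fold limit as well, IGF2BP2 against the other fRIPs turned to 0.29, all genes gave 3169 calls higher and 920 lower, and 3 isoforms were lower. Centring also gave 4 higher and 0 lower for miRNA processing genes, 10 and 0 for let-7 targets and 5 higher for IMP1 targets. The matched input set, set 1 alone for IMP1, turned IGF2BP2 to -0.25, also with the replicate block, and gave 1 miRNA processing gene lower, 0 let-7 targets lower and 5 IMP1 targets higher. A pseudocount of 0.1 FPKM gave 5197 genes lower and 0.89 for the HMGA1 to HMGA2 ratio (exact permutation p = 0.0909). With 1 FPKM that ratio was 1.44 (exact permutation p = 0.00455) and follows HMGA1, and it was 1.90, 1.17 and 1.26 against input sets 1, 2 and 3 alone (exact permutation p = 0.1, the smallest that 3 against 3 allows). With the longest 3′ UTR, HMGA2 held 0 seed matches. The cause of these moves was not tested.

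Leaving out 1 library at a time, IMP1 differences ranged from 0.43 to 0.73 for IGF2BP1, 0.03 to 0.15 for IGF2BP2, 0.21 to 0.32 for IGF2BP3, 1.14 to 1.57 for LIN28B, 1.51 to 1.62 for HMGA1 and 0.63 to 0.71 for DICER1, and the paralogue ratios from 0.28 to 0.70 (IGF2BP1 to IGF2BP2) and from 0.14 to 0.41 (IGF2BP1 to IGF2BP3). With a replicate block over all libraries the differences were 0.55, 0.09, 0.27, 1.31, 1.57 and 0.67 in the same order, IGF2BP3 then passed the adjusted p alone (limma adjusted p = 0.0362), and 1084 genes were higher and 2670 lower. The block changed no gene call that the same inputs without it kept. Of the single calls, 13 of genes and 5 of isoforms were lost under at least 1 alternative, all in the same direction. Depth limits HMGA2, at no more than 26.2 fragments per IMP1 or input library when converted at 4117 bases.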
